A study of Homo sapiens with 192 samples.

Results

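The genes described here are those of the cytosolic ribosomal proteins. They were taken by name from GENCODE 44: autosomal protein-coding genes named RPL or RPS with a number, plus RPSA, without the RPS6K kinases and without names that carry an L after the number. This gave 73 genes of 19111. The name rule also took RPS19BP1, which encodes a protein that binds RPS19 and is not part of the ribosome, and the read-through genes RPS10-NUDT3 and RPL17-C18orf32. Of the other 70 genes, 40 encode proteins of the large subunit and 30 proteins of the small subunit. A feature, that is, an interval of fixed length around a summit of accessible chromatin, was assigned to a gene when its nearest base lay at most 1000 bp from the gene start.

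The measurement was plate-based single-nucleus ATAC sequencing (snATAC-seq) of HAP1 cells, a near-haploid human line derived from a chronic myeloid leukemia line. Part of the cells carried CASB, a DNA barcode held on the nucleus by concanavalin A, and part were unlabeled, and both were tagmented as 1 pool and sorted as single nuclei into 2 plates of 96. No other treatment or genotype is given for either plate, and the CASB label of each cell is not known here, which makes each plate 1 mixed sample, with no replicate, and no test between plates was made. Cells that held more than 300 features are called passing cells, and they numbered 83 in plate 1 and 79 in plate 2. On each plate, cells 37 to 48 share many rare features with cells 73 to 84, and cells 73 to 84 with cells 85 to 96, at matching positions, so that these wells do not hold independent cells. Values without them, and with such wells merged, are given after the main values.

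Ribosomal proteins coat the ribosomal RNA of the small subunit, which reads the mRNA, and of the large subunit, which joins amino acids. Their genes are expressed in nearly all cells, and their products are needed in equal numbers. Their promoters characteristically start transcription at a C within a run of pyrimidines, the 5′ terminal oligopyrimidine (TOP) tract, through which mTOR signaling controls translation of these mRNAs. Many of their introns encode small nucleolar RNAs (snoRNAs).

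The stretches around the annotated start are shown for 4 of the genes whose promoters were seen in most cells and for the 3 seen in fewest, since the TOP tract is the feature the family shares. Each runs 5′ to 3′ on the gene's strand, from 60 bases before the RefSeq start (GRCh38.p14) through the first 15 transcribed bases. Capitals mark the longest stretch of at least 5 pyrimidines that begins with a C within 5 bases of the start. Pyrimidines may also precede the capitals, as in RPS7, RPL24 and RPSA, so the whole run can be longer.
RPSA, chr3:39406660-39406734, plus strand: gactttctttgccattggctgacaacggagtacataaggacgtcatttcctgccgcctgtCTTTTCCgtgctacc
RPS7, chr2:3575200-3575274, plus strand: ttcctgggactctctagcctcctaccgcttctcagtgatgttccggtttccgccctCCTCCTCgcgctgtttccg
RPL24, chr3:101686704-101686778, minus strand: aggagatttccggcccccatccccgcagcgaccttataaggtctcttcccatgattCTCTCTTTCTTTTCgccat
RPL15, chr3:23916485-23916559, plus strand: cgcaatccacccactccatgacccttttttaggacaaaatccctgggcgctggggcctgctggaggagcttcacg
RPL12, chr9:127451392-127451466, minus strand: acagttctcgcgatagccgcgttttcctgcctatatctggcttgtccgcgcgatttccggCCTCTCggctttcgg
RPL3, chr22:39319609-39319683, minus strand: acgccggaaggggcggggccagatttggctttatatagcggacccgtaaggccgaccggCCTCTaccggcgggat
RPL11, chr1:23691719-23691793, plus strand: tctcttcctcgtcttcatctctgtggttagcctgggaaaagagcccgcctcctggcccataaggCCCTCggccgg
The longest of these stretches, called tracts here, that of RPL24, spans 14 bases, and the shortest, in RPL3 and RPL11, 5 bases. RPL15 holds no such tract at its RefSeq start, which lies 46 bp from the GENCODE gene start.

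A promoter sequence from 250 bases before to 50 bases after the start was matched for 55 of the 70 ribosomal protein genes. The tract was found on the sense strand in 45 of these 55 promoters (81.8%), against 22.1% of all 14615 promoters of the table. Of the motifs searched on both strands, the ETS core CCGGAAG was in 34.5% of the 55 promoters and 14.5% of all, and the YY1 core ATGGCGG in 20.0% and 7.80%. The GCGCATG part of the NRF1 motif was in 10.9% and 5.79%. On its other strand the ETS core begins with a run of pyrimidines, so it can overlap a tract, and the other motifs were free to overlap as well. The SP core GGGCGG was in 54.5% and 59.9%, and TATAAA in 7.27% and 9.83%. The promoters of the family thus differed from all promoters most in the tract. The ETS core, the YY1 core and the NRF1 part were also more frequent, in 19, 11 and 6 of the 55 promoters. The SP core and TATA box were somewhat less frequent. These differences were not tested. Their median GC content was 59.3%, against 63% for all promoters, and their median ratio of observed to expected CpG was 0.907, against 0.773. A match of letters describes the sequence and shows no bound factor.

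At least 1 feature lay at the start of 45 of the 73 genes (61.6%, exact 95% interval 49.5 to 72.8%). The background was 47.5% of all autosomal protein-coding genes. The lower end of the interval lay just above this background, and no test was made, because all genes were read in 1 pool of cells. Small subunit genes had a feature in 21 of 30 cases (70%, interval 50.6 to 85.3%), and large subunit genes in 22 of 40 (55%, interval 38.5 to 70.7%), and these intervals overlapped. The assigned features numbered 53, which is 0.0688% of the 77053 kept features, where a kept feature was seen in at least 2 cells of both plates together. Of the genes, 36 had 1 feature and 9 had 2, namely RPS7, RPS27A, RPSA, RPL24, RPL9, RPL7, RPL30, RPS19 and RPL28.

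The promoters were seen in few cells each. A gene counted as seen in a cell when any of its features held at least 1 read pair. Over all 73 genes the median was 4 passing cells (2.47%), with genes lacking a feature counted as 0. Without cells 37 to 48 and 73 to 96 this median was 1.1%. Among the 45 genes with a feature, the median was 6 cells (3.70%, quartiles 4 and 10 cells), while over all 9084 genes with a feature it was 8 cells (4.94%, quartiles 5 and 14). Only 3 ribosomal protein genes (4.11%) were seen in at least 10% of passing cells, where 8.58% of all genes were. Counted by cells, 19 genes were seen in 5 or fewer, 14 in 6 to 9 and 12 in 10 or more. At least 6 cells showed 35.62% of the 73 genes and 32.97% of all genes. At least 10 cells showed 16.44% of the 73 genes and 20.19% of all genes. These differences were small, went in opposite directions and were not tested, so the counts mark no trait of the family. A larger share of the family than of all genes thus had a feature, while the median number of cells among genes with a feature was lower for the family.

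**Figure D1:**
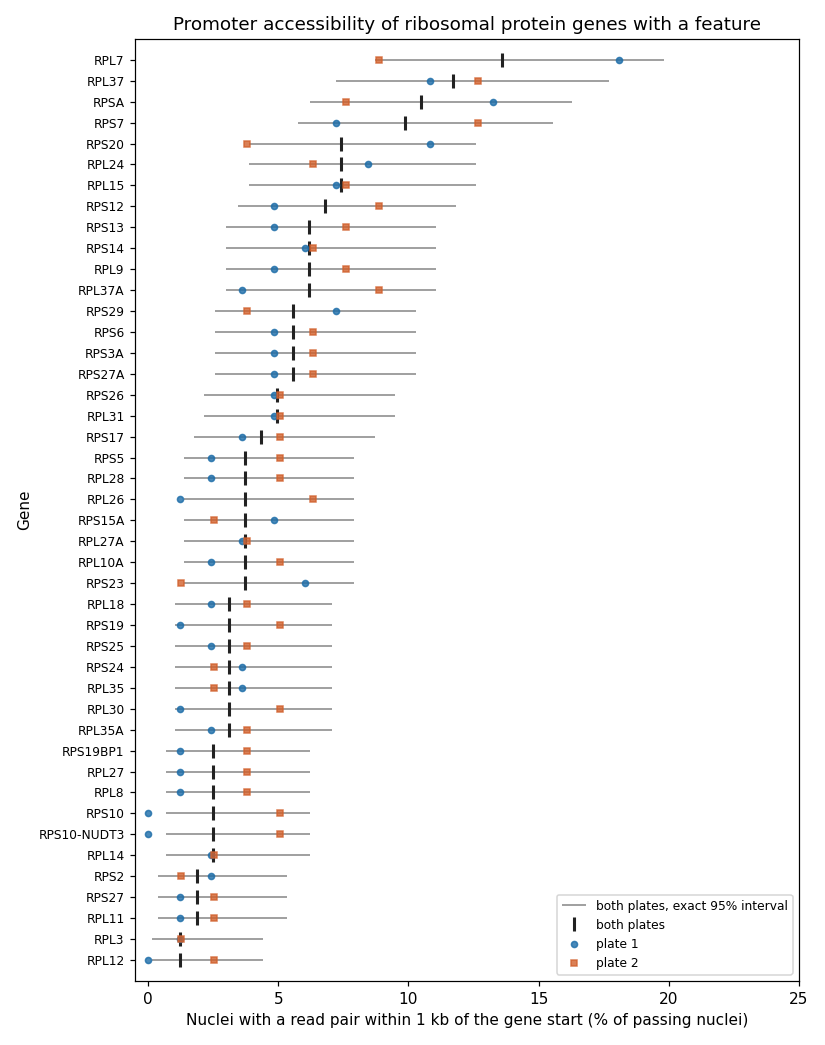
Percentage of passing cells with a read pair near the start (x axis) for 44 of the 45 ribosomal protein genes with a feature (y axis). Black ticks and gray lines give both plates together with the exact 95% interval, circles plate 1 and squares plate 2. RPL7 is highest at 13.6% and RPL12 and RPL3 lowest at 1.23%, and most neighboring intervals overlap.

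RPL7, a large subunit protein gene on chromosome 8, was seen in the most cells. It was seen in 15 of 83 passing cells of plate 1 and 7 of 79 of plate 2, together 22 (13.6%, interval 8.71 to 19.8%). It had 2 features, and the one seen more often (16 cells) did not contain the start of RPL7. Its center lay 1347 bp downstream, within reach of the start of RDH10, a retinol dehydrogenase gene, while the other, centered 221 bp downstream of the RPL7 start, was seen in 9 cells. Restricted to features that contain the gene start, RPL37 was the highest gene instead.

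RPL37, of the large subunit, had 1 feature (chr5:40834851-40835851) that contained its start. It was seen in 9 cells of plate 1 and 10 of plate 2, together 19 (11.7%, interval 7.21 to 17.7%). The intervals of the plates overlapped.

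RPSA encodes a small subunit protein that is also known as the laminin receptor precursor. It was seen in 11 cells of plate 1 and 6 of plate 2, together 17 (10.5%, interval 6.23 to 16.3%). Its main feature (chr3:39406059-39407059) was seen in 15 cells and its second, centered at -881 bp, where negative values are upstream of the start, in 7.

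RPS7, a small subunit gene mutated in some families with Diamond-Blackfan anemia, was seen in 6 cells of plate 1 and 10 of plate 2, together 16 (9.88%, interval 5.75 to 15.5%). Its main feature (chr2:3574782-3575782) was centered 22 bp from the start and was seen in 15 cells. A second, overlapping feature further into the gene was seen in 8.

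The next level, 12 cells (7.41%, interval 3.89 to 12.6%), was shared by RPL15, RPL24 and RPS20. RPL15 was seen in 6 cells of each plate, and its feature (chr3:23916645-23917645) began downstream of the start. RPL24 was seen in 7 and 5 cells of plates 1 and 2, and RPS20 in 9 and 3. Neighbors in this order did not differ beyond their intervals. The lower end of the interval of RPL7 lay above the upper end for 27 of the 45 genes, those seen in at most 7 cells.

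RPL12 and RPL3 were seen in 2 cells each (1.23%, interval 0.150 to 4.39%), the fewest among genes with a feature. RPL3, a core protein of the large subunit near the catalytic center, was seen in 1 cell of each plate. Its feature (chr22:39318801-39319801) contained the RefSeq start and not the GENCODE gene start, which lie 766 bp apart. RPL12, of the large subunit, was seen in 0 cells of plate 1 and 2 of plate 2, and its feature (chr9:127452045-127453045), centered at -1139 bp, was also near the start of LRSAM1.

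Just above these came RPL11, RPS27 and RPS2 with 3 cells each (1.85%, interval 0.384 to 5.32%). RPL11, a large subunit protein that also binds MDM2, was seen in 1 cell of plate 1 and 2 of plate 2. RPS27 showed the same counts, and RPS2 was seen in 2 and 1. Of these, only the feature of RPL11 contained the start.

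No feature lay within 1000 bp of the start of 28 genes. The large subunit genes among them were RPL22, RPL5, RPL32, RPL29, RPL34, RPL7A, RPL41, RPL6, RPL21, RPL4, RPL13, RPL23A, RPL23, RPL19, RPL38, RPL17, RPL36 and RPL13A. The small subunit genes included RPS18, RPS3, RPS15, RPS28, RPS16, RPS9 and RPS21, and the read-through gene RPL17-C18orf32 also had none. The nearest kept feature lay between 1136 bp (RPL41) and 108884 bp (RPL7A) away, with a median of 7809.5 bp, and within 5 kb for 9 genes. In 5 of the 28, a kept feature lay inside the gene. Leaving out the filter on features added none of them.

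For some of these genes the choice of start mattered. With the start of any GENCODE transcript in place of the end of the gene, RPL22, RPS18, RPL41 and RPL36 gained a feature, seen in 4, 6, 9 and 5 cells. The RefSeq start lay 9794 bp from the GENCODE gene start for RPL22, 15348 bp for RPL36, 19677 bp for RPL4 and 7396 bp for RPL6. RPL4 and RPL6 had no feature under either rule. Because features exist only where peaks were called on all cells together, a missing feature sets no limit on accessibility, and such genes are not called closed.

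**Figure D2:**
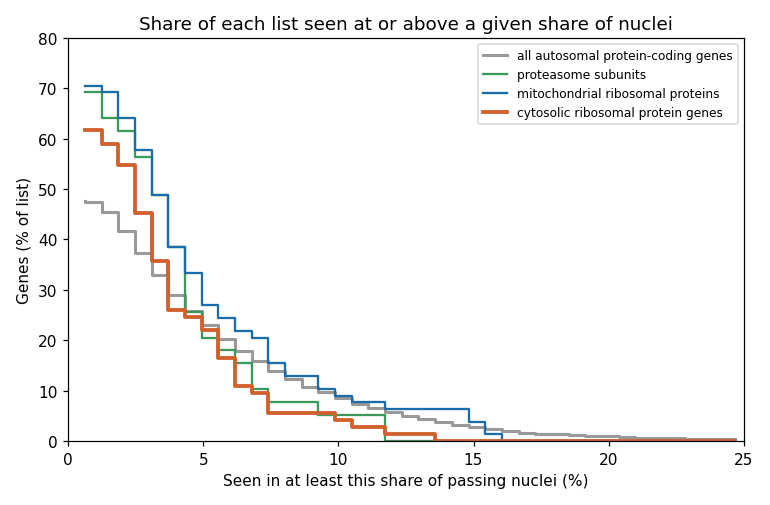
Percentage of the genes of a list (y axis) seen in at least a given percentage of passing cells (x axis), for ribosomal protein genes, mitochondrial ribosomal proteins, proteasome subunits and all autosomal protein-coding genes. The ribosomal protein line starts at 61.6%, above the 47.5% of all genes, and lies below it at 10% of cells, where it stands at 4.11% against 8.58%.

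Other housekeeping complexes were used for comparison. Genes of mitochondrial ribosomal proteins had a feature in 55 of 78 cases (70.5%, interval 59.1 to 80.3%) and proteasome subunit genes in 27 of 39 (69.2%, interval 52.4 to 82.98%). Both intervals overlapped that of the cytosolic ribosomal protein genes. With a feature present, the median was 7 cells in both lists, 1 cell more than for the cytosolic genes. The share seen in at least 10% of cells was 8.97% for the mitochondrial and 5.13% for the proteasome list. The cytosolic genes therefore lay below the mitochondrial ribosomal proteins on each of these measures, and the difference was within the intervals where one could be given.

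Genes that work with the ribosome were counted in the same way. Of 18 genes of translation factors and other proteins with TOP mRNAs, 11 had a feature, with a median of 16 cells among these. The highest were NAP1L1, a histone chaperone, with 27 cells, and EIF3E, an initiation factor subunit, with 25, while EEF1A1, the main elongation factor, had no feature. Of 20 ribosome biogenesis genes 12 had a feature, with a median of 8.5 cells. Among cytosolic ribosome genes that the name rule leaves out, RPLP1 was seen in 9 cells, RPLP2 in 8, FAU in 6, RPLP0 in 4 and RACK1 in 3. RPLP0, RPLP1 and RPLP2 form the stalk that recruits translation factors, FAU encodes a ribosomal protein fused to a ubiquitin-like protein, and RACK1 is a scaffold on the small subunit. Their values lay within the range of the 45 genes.

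Paralogs with an L after the number had a feature in 5 of 8 cases, with RPL36AL seen in 17 cells and RPS27L in 15. On the X chromosome, RPL36A was seen in 14 cells, RPL39 in 11 and RPS4X in 7, and RPL10 had no feature. Of 5 hematopoietic genes only KLF1 had a feature (2 cells), with none at PTPRC, SPI1, TAL1 or CD34. Of 5 genes of adherent and mesenchymal cells, FN1 was seen in 17 cells, TWIST1 and CDH2 in 15 and VIM in 11, and LGALS1 had none. The exact intervals for the share with a feature were 0.505 to 71.6% for the hematopoietic and 28.4 to 99.5% for the adherent list. They overlapped, and both held the 47.5% of all autosomal protein-coding genes. HAP1 grows attached although its parent line is leukemic.

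Ribosomal protein genes were also counted by chromosome, beside all genes there. On chromosomes 17 and 19, 7 of 18 ribosomal protein genes had one (38.9%), where 28.2% of all genes there did. On chromosomes 2 to 6 it was 18 of 22 (81.8%), where 57.3% of all genes did. These chromosomes were grouped after the values had been seen. Other chromosomes went against this order. Chromosome 22 had 2 of 2, RPL3 and RPS19BP1, where 25.5% of all genes had a feature. Chromosome 18 had 0 of 2, RPL17 and its read-through gene, where 54.1% did. Chromosome 13 had 0 of 1, where 65.6% did. RPS19BP1 is not part of the ribosome, and RPL17 and its read-through gene start near each other. Chromosomes 22 and 18 thus rest on 1 ribosomal protein gene each.

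**Figure D3:**
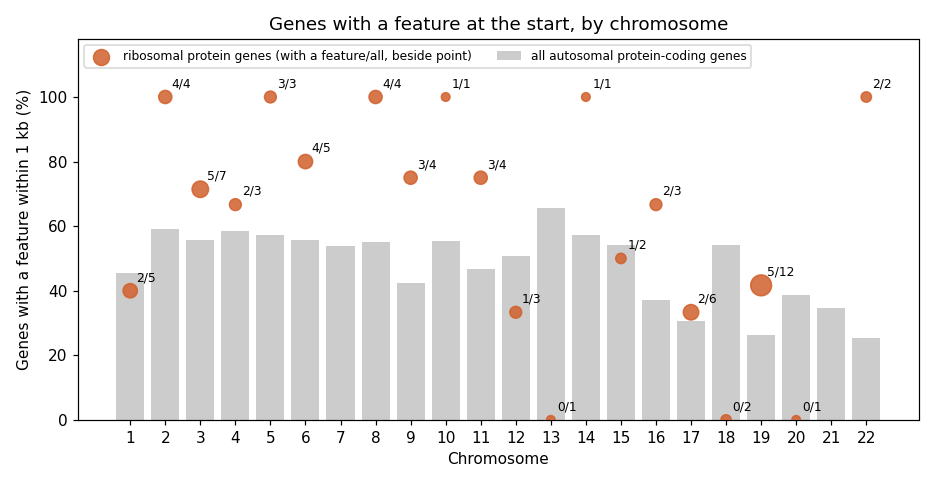
Percentage of genes with a feature within 1000 bp of the start (y axis) on each autosome (x axis). Bars give all protein-coding genes and circles ribosomal protein genes, sized by their number, with the count beside each. On chromosome 19, which holds 12 of the genes, 5 had a feature, and on chromosome 3 it was 5 of 7.

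GC content around the start was similar for genes with and without a feature. In a window of the length of a feature around the start, the median GC content was 57.9% for the 45 genes with a feature and 56.4% for the 28 without. Over all genes the difference was larger, with medians of 61.7% and 56.04%. In the band from 55 to 60% GC, which held 29 of the 73 genes, 18 had a feature (all genes, 53.4%), and their median was 10 cells, where it was 9 for all genes with a feature in that band. In the band from 60 to 65%, 11 of 14 had a feature (all genes, 58.8%), with a median of 6 cells against 9. In the band from 65 to 70%, it was 5 of 10 (all genes, 61.5%), with a median of 5 cells against 8. In the band from 50 to 55%, 6 of 11 had a feature (all genes, 43.6%), with a median of 3.5 cells against 9. In the band from 40 to 50%, it was 4 of 7 (all genes, 22.6%), with a median of 6.5 cells against 7. The TOP tract was present in 27 of 33 promoters of genes with a feature and in 18 of 22 without.

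The genes were also divided by whether they host snoRNAs. Of the 26 genes with an annotated snoRNA inside, 12 had a feature (46.2%), and of the other 47 genes, 33 (70.2%), beside the 47.5% of all genes. The hosts without a feature include both RPL17 and its read-through gene, which start near each other. The others with a feature include RPS10, its read-through gene and RPS19BP1. Among those with a feature, the medians were 7.5 and 6 cells. The median GC content was 56.1% for the hosts and 58.8% for the rest, and the part of GC content or chromosome in this split was not tested. RPL37, RPSA and RPS20 are hosts with high values, whereas RPL4, with 5 snoRNAs, and RPL7A, RPL23A and RPL13A, with 4 each, had no feature.

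The features mostly sat at or just before the start. For each gene the feature seen in most cells was taken, and it contained the start in 36 of 45 genes (80%), as it did in 77.8% of the 9039 other genes with a feature. Relative to the start, with negative values upstream, its center lay at a median of -98 bp (quartiles -194 and 62 bp). For the other genes the median was -10 bp. The center lay downstream of the start in 14 of 45 ribosomal protein genes (31.1%) and in 48.2% of the other genes. For mitochondrial ribosomal proteins 54.5% lay downstream.

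**Figure D4:**
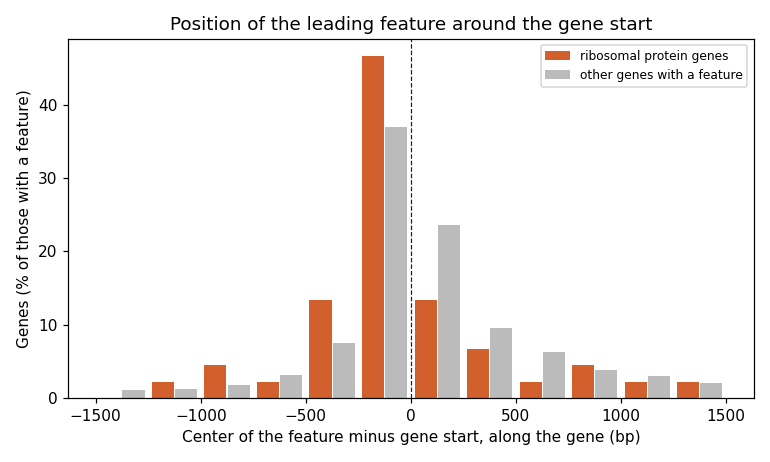
Percentage of genes (y axis) by the distance of the center of their leading feature from the gene start (x axis, bp, negative values upstream, bins of 250 bp), for 45 ribosomal protein genes and 9039 other genes. The bin just upstream of the start holds 46.7% of the ribosomal protein genes and 36.9% of the others, and the bin just downstream 13.3% and 23.7%.

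Some features serve more than 1 gene. For 15 of the 45 genes a feature also lay within 1000 bp of the start of another protein-coding gene. This includes the pair of RPS10 and RPS10-NUDT3. The same share over all genes with a feature is not given here, so the count marks no trait of the family. Besides RPL7, those seen in most cells were RPS12 (11 cells, with SLC18B1), RPL9 (10 cells, with LIAS), RPS27A (9 cells, with CLHC1) and RPS29 (9 cells, with LRR1). For these genes the accessibility cannot be assigned to 1 of the starts. The median was 6 cells both for the 15 genes with a shared feature and for the 30 without. RPS10 and RPS10-NUDT3 shared all their counts, 0 cells in plate 1 and 4 in plate 2, and RPS19BP1 was seen in 1 and 3 cells.

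Single genes were compared between the plates. For none of the 73 genes did the exact intervals of the plates fail to overlap, where they did for 0.0942% of all genes. Of the 73, 28 had no feature and 19 were seen in 5 or fewer cells, too few for such intervals to separate. The overlap therefore does not show that the plates gave the same levels. The largest difference toward plate 1 was that of RPL7, at 18.1% (interval 10.5 to 28.05%) in plate 1 and 8.86% (interval 3.64 to 17.4%) in plate 2. RPS20 followed at 10.8% and 3.80%, and RPSA at 13.3% and 7.59%. Toward plate 2, RPS7 was seen in 7.23% of plate 1 and 12.7% of plate 2. RPL37A, of the large subunit, was seen in 3 and 7 cells (3.61% and 8.86%), and RPL26, a large subunit protein, in 1 and 5 (1.205% and 6.33%).

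Across the family, 34 of the 45 genes had the higher percentage in plate 2 and 11 in plate 1. Of all genes seen, 57.7% were higher in plate 2, against 75.6% of the ribosomal protein genes. Genes with equal cell counts in both plates, such as RPL15 and RPL31, count as higher in plate 2, which had fewer passing cells (79 against 83). RPS10 and RPS10-NUDT3 share 1 feature and were counted separately. The contrast with all genes was not tested. RPL12, RPS10 and RPS10-NUDT3 were seen in plate 2 alone. With differences of a few cells per gene, neither direction is distinguishable from counting error for a single gene.

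Read pairs were compared between the plates as well. In plate 1, 202 of 240092 read pairs counted in features of passing cells lay in features of ribosomal protein genes (0.0841%, interval 0.0729 to 0.0966%). In plate 2 it was 231 of 238287 (0.0969%, interval 0.0848 to 0.110%), and the intervals overlapped. The counts were sparse, since 326 of the 374 combinations of feature and cell with a signal (87.2%) held a single read pair and the highest held 4. Since the counting allowed a pair to be assigned to more than 1 feature, overlapping features such as those of RPS7 can hold the same pair.

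Single cells showed few of these promoters at once. A passing cell of plate 1 had a median of 1 ribosomal protein gene seen (range 0 to 10), and of plate 2 a median of 2 (range 0 to 12). The highest cells, 80 of plate 1 and 40 of plate 2, are among the wells that share features. Outside those wells the highest numbers were 8 in plate 1 and 7 in plate 2. None was seen in 26 of 83 cells of plate 1 and 18 of 79 of plate 2. The number followed depth, with a Spearman's rho with read pairs of 0.691 in plate 1 and 0.766 in plate 2, across cells that are not independent replicates, and for all other genes it was 0.971 in both. Ribosomal protein genes made up 0.341% of all genes seen in plate 1 and 0.374% in plate 2. For scale, the family holds 73 of the 19111 genes and 45 of the 9084 genes with a feature. After thinning to 600 read pairs per cell, for which 10 and 6 cells were too shallow, the median was 0 in both plates.

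**Figure D5:**
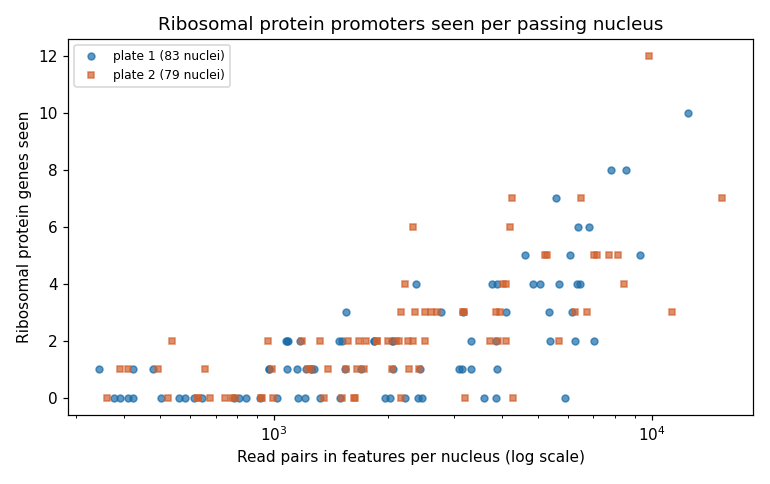
Number of ribosomal protein genes seen in each passing cell (y axis) against its read pairs in features (x axis, log scale), with circles for the 83 cells of plate 1 and squares for the 79 of plate 2. Cells with few read pairs show 0 to 2 genes. The highest number, 12, was in a deep cell of plate 2 that is among the wells that share features.

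The wells that share features touched part of these values. Of the 53 features, 21 were seen in both wells of such a pair. The share over all kept features is not given here. A feature seen in many cells can fall in both wells of a pair without being shared, so this count alone shows no effect. Of the 2 features seen in exactly 2 cells, 1 was in such a pair, that of RPL12, which was left in 1 unit (0.870%) when each set of paired wells was merged into 1 unit. Merging reduced the 338 combinations of gene and cell to 309. Without cells 37 to 48 and 73 to 96, which left 91 cells, RPL7 was seen in 11 (12.1%), RPSA in 10 (10.99%), RPL37 and RPL15 in 9 (9.89%) and RPS7 in 7 (7.69%). RPL12 and RPL18 were then seen in none. The exact intervals above count paired wells as separate cells and so understate the error.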

How the data were processed

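Per the Methods and the submitters' processing notes, the authors aligned reads to hg38 and discarded duplicates, mitochondrial reads and reads of low quality. Peaks were called by MACS2 on the merged cells, and featureCounts (version 1.6.0) gave the read pairs of each feature and cell. The deposited values are raw counts without normalization, for 80971 features and 192 cells, and 0 columns were left unused. Because duplicates were removed per cell, a molecule read in several wells would remain in each, and whether this occurred was not tested.

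Counts were binarized to score cells and features, and shares of read pairs used the counts themselves. Of the features, 77053 were seen in at least 2 cells and kept. A cell passed with more than 300 of these. Passing cells held 345 to 15351 read pairs (median 2067.5). Nuclei were sorted singly, and no doublet caller was run. A gene start was the 5′ end of the GENCODE 44 gene, and a feature within 1000 bp was assigned. The features' chromosome names and ends were checked against hg38. Intervals of shares are exact 95% Clopper-Pearson intervals and cover counting error only, since reads carry no molecular identifiers. Promoter sequences came from RefSeq (GRCh38.p14), matched by symbol.

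Each plate is 1 sample, so no p-value was made. Genes named were the 5 seen in most and the 5 in fewest cells, the 3 with the largest plate difference in each direction, all without a feature, and, of those sharing a feature, the 5 seen in most cells, with ties in genome order. Others were named after their values were seen. Some genes are counted in totals but not reported here by name. Members and lists were chosen with earlier results of these data known. Alternatives covered the window, start, filters, wells, depth and membership. Scripts were tested on simulated data. The software was SciPy 1.17.1 with NumPy 2.4.6 under Python 3.11.15, pandas 2.3.3 for tables, and matplotlib 3.10.9 for plots.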

Additional observations from a re-analysis of the deposited data

How the results depend on the processing

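Of 51 alternative values, 37 stayed within the counting interval of the value reported, or within 1.5 times for counts, and 14 did not. The share of ribosomal protein genes with a feature was above that of all genes in 8 of the 9 settings that can change it. With features seen in at least 10 cells it was below, by -3.45 percentage points in place of 14.1, and 11 genes rather than 45 had a feature. Their median percentage of cells, given a feature, was below that of all genes in the 14 settings that can change it. The median over all 73 genes fell from 2.47% to 0% with features of at least 10 cells and also after thinning to 600 read pairs per cell. It was 0% as well with features of at least 5 cells, a setting added for this value after seeing the data. Without the paired wells it was 1.1%. With features that contain the start, 0.0666% of the read pairs in plate 1 and 0.0718% in plate 2 lay in these features, and without the paired wells 0.115% in plate 2. The genes seen per cell in plate 1 (1) became 2 with cells of more than 1000 features, 2 with paired wells merged and 0 with thinned cells. In plate 2 (2) they became 1 with features that contain the start, 1 with no cell filter, 1 without the paired wells and 0 with thinned cells. Stricter filters leave fewer features and thinning fewer reads. The cause of the other changes was not tested. Depth limits every statement on single genes, as most were seen in fewer than 10 cells.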
